A study of Mus musculus with 8 samples.

Results

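The cells described here were neutrophils, the short-lived granulocytes that are made in bone marrow and enter inflamed tissue in numbers. They were 156 of the 46206 cells that passed the cell filter in 4 gene expression libraries of brain and tumour tissue. A cell was a barcode with at least 500 unique molecular identifiers (UMIs, each counting 1 captured transcript), 200 to 6000 detected genes and at most 10% mitochondrial UMIs. A neutrophil had at least 10 UMIs of S100a8 and S100a9 together, at least 2 UMIs of Retnlg, Csf3r, Cxcr2 and Mmp8 together, and no UMI of Cd3d, Cd3e, Cd3g, P2ry12, Tmem119 or Cd79a. The cells were thus selected on the levels of these genes, which are given as a description only.

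Neutrophils mature in an ordered way. Precursors load primary (azurophil) granules with proteases such as elastase and myeloperoxidase, later stages load secondary granules with cathelicidin (Camp), lactoferrin (Ltf) and Ngp, and mature cells switch these transcripts off, gain the chemokine receptor Cxcr2 and can make Il1b, a cytokine that drives inflammation. GM-CSF and G-CSF act on this lineage through receptors whose chains are encoded by Csf2ra, Csf2rb and Csf3r, and interferons switch on a separate group of antiviral genes in many cell types, neutrophils included.

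All mice carried NestinCreERT2;Fus1;RFPTdT and bore EPZFTA-RELA tumours, a model of the childhood brain tumour ependymoma in which the promoter of the neural stem cell gene Nestin drives the Cre. They were randomised at 3 weeks of age to 1 intrathecal dose of mavrilimumab, an antibody against the GM-CSF receptor alpha chain (5 mg/kg), or to a control antibody (vehicle IgG), and the protocol gives an age of 6 to 8 weeks at sampling, while the study describes the sequenced cells as taken at tumour recurrence. Tissue was dissociated, stained for CD45, Ter119 and DAPI, sorted (in the study's account for CD45+ cells outside blood vessels) and loaded on the 10x Genomics 5′ platform, with 2 expression libraries per group. Tumours of several mice were pooled and the number of mice behind each library was not given in the sources used here, so p-values measure only the spread between libraries.

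The expression libraries held 1120 (vehicle IgG 1), 31922 (vehicle IgG 2), 7086 (mavrilimumab 1) and 6078 (mavrilimumab 2) cells, with total counts between 24354457 and 148657643 UMIs. Vehicle IgG 2 stood apart, since 16710 of its 31922 cells carried neural or tumour genes. Each T cell receptor library read here named the other group inside its file, while its barcodes were shared with an expression library of the labelled group. The one labelled vehicle IgG 1 named itself Mav inside its file and shared 182 of its 193 barcodes with the expression library vehicle IgG 1. The one labelled mavrilimumab 1 named itself Veh and shared 2520 of 2749 with mavrilimumab 2, and the one labelled mavrilimumab 2 also named itself Veh and shared 5033 of 5659 with mavrilimumab 1. Every direction below follows the labels of the expression libraries and rests on them. No neutrophil barcode was shared between expression libraries.

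The promoters of 3 secondary granule genes and 3 interferon-stimulated genes are shown because these gene groups set apart the kinds of neutrophil described below. Each runs from 250 bases before to 50 bases after the RefSeq gene start on GRCm38.p6, 5′ to 3′ on the gene's strand. Camp lies at chr9:109849407-109849706 on the minus strand, Ltf at chr9:111019042-111019341 on the plus strand and Ngp at chr9:110419558-110419857 on the plus strand. Capitals mark matches to TTGCNNAA or its reverse complement TTNNGCAA, the core bound by C/EBP factors, which are granulocyte regulators.
Camp: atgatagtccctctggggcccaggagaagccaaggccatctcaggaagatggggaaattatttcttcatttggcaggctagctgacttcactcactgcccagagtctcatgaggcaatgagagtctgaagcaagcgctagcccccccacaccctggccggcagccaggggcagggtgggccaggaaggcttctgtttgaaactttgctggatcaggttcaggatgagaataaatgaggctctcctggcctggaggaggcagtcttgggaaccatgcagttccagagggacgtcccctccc
Ltf: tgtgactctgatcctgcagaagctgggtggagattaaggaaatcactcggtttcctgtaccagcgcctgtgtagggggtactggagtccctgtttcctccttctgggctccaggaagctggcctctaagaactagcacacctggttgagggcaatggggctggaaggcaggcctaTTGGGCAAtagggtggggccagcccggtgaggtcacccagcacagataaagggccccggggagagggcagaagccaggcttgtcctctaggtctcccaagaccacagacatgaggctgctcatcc
Ngp: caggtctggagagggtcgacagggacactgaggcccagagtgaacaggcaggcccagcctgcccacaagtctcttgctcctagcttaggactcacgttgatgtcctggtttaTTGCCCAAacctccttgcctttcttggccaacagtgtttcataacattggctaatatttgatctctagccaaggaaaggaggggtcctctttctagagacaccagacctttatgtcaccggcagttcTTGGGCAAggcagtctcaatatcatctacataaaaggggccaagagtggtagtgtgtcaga

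Isg15 lies at chr4:156200769-156201068 on the minus strand, Ifit3 at chr19:34583279-34583578 on the plus strand and Rsad2 at chr12:26456403-26456702 on the minus strand. Capitals mark GAAANNGAAA or its reverse complement TTTCNNTTTC, the interferon-stimulated response element (ISRE). Matches may overlap each other.
Isg15: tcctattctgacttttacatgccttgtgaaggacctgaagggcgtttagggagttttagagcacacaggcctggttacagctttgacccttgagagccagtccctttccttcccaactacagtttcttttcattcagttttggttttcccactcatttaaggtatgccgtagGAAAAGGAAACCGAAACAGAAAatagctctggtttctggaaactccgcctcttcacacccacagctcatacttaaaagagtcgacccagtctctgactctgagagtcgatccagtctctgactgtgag
Ifit3: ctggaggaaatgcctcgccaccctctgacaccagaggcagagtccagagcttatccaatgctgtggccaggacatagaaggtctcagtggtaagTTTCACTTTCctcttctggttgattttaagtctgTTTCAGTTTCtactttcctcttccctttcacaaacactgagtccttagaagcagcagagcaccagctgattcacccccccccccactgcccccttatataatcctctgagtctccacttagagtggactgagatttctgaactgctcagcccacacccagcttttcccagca
Rsad2: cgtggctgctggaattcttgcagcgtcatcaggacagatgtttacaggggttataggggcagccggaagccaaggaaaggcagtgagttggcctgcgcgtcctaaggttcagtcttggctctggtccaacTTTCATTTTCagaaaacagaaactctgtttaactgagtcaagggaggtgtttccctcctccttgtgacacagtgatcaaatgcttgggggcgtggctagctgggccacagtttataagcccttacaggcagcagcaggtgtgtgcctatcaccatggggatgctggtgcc

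The C/EBP letters were in 3547 of 32851 mouse promoters of this length (10.8%). Ltf had 1 match, 75 bases before the gene start, Ngp had 2 and Camp had 0. The ISRE letters were in 1131 of the 32851 promoters (3.44%). Isg15 had 3 matches, Ifit3 had 2 and Rsad2 had 1. A match is a run of letters, not a measured binding site, and a window without one says nothing about the factor.

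Neutrophils were few in every library. They were 8 of 1120 cells in vehicle IgG 1 (0.714%, 95% exact Clopper-Pearson interval 0.309 to 1.40), 65 of 31922 in vehicle IgG 2 (0.204%, 0.157 to 0.259), 15 of 7086 in mavrilimumab 1 (0.212%, 0.119 to 0.349) and 68 of 6078 in mavrilimumab 2 (1.12%, 0.870 to 1.42). These intervals cover counting error only. The groups overlapped, with 1 low and 1 high library in each. The mean was 0.459% ± 0.361 with vehicle IgG and 0.665% ± 0.641 with mavrilimumab (SD, n = 2 libraries each), a difference of 0.206 points (2-sided exact permutation test, p = 0.667). The smallest p that 2 libraries against 2 allow is 0.333. Without vehicle IgG 2 the difference turned to -0.0490 points, and without mavrilimumab 2 to -0.247 points.

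Among cells with a UMI of Ptprc, which encodes CD45, neutrophils were 0.900%, 0.609%, 0.194% and 1.38% in the same order of libraries, and mavrilimumab exceeded vehicle IgG by 0.0342 points on average (p = 1, exact permutation test). A Ptprc UMI was seen in all 8 neutrophils of vehicle IgG 1, in 69.2% of those of vehicle IgG 2, in 86.7% of those of mavrilimumab 1 and in 94.1% of those of mavrilimumab 2. The sort on CD45 and the neural cells in vehicle IgG 2 bear on the first denominator.

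**Figure D1:**
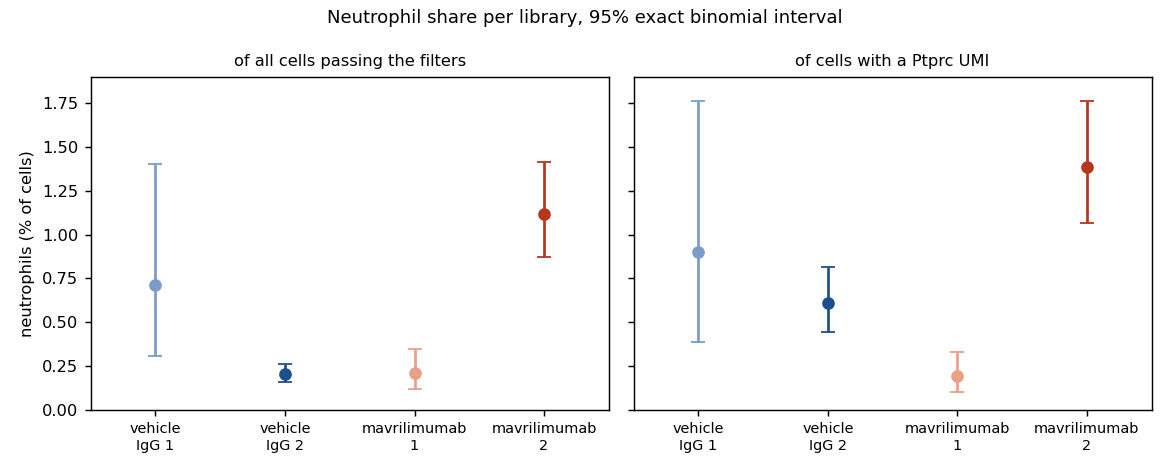
Neutrophils as a percent of cells (y axis) in each expression library (x axis), over all cells passing the filter on the left and over cells with a Ptprc UMI on the right. Points are the measured shares and bars the 95% exact binomial intervals. Vehicle IgG 1 and mavrilimumab 2 sit above the other library of their own group on the left.

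Depth per neutrophil differed between libraries. The median was 8091 UMIs in vehicle IgG 1, 1388 in vehicle IgG 2, 2247 in mavrilimumab 1 and 4991.5 in mavrilimumab 2, beside 10092, 2736, 3529.5 and 8526.5 over all cells. Summed over neutrophils, the libraries gave 64393, 159948, 33815 and 487102 UMIs. Few neutrophils lay near the limits of the rule: 10 had 10 to 14 UMIs of S100a8 and S100a9, beside 7 cells left out with 5 to 9, and 11 had 2 UMIs of Retnlg, Csf3r, Cxcr2 and Mmp8, beside 10 left out with 1 and 3 with 0. The genes that must be absent left out 44 further cells.

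S100a8 and S100a9, the subunits of the calcium-binding protein calprotectin, led the neutrophil transcriptome. S100a9 stood at 35656, 31004, 43324 and 85844 CPM (counts scaled to a total of 1000000 summed neutrophil UMIs) in vehicle IgG 1, vehicle IgG 2, mavrilimumab 1 and mavrilimumab 2. S100a8 stood at 29864, 29116, 30342 and 84586 CPM. Both genes together took 6.55%, 6.01%, 7.37% and 17.0% of all neutrophil UMIs, so mavrilimumab 2 was high and the other libraries lay close together. Retnlg, a resistin-like secreted protein of granulocytes, was at 2857, 6783, 7837 and 9786 CPM.

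The receptors in the rule were read in every library. Csf3r, the G-CSF receptor, was at 2625, 944, 1834 and 1141 CPM, and Cxcr2 was at 1770, 675, 946 and 758 CPM. Both were highest in vehicle IgG 1. Mmp8, neutrophil collagenase, was at 124, 688, 148 and 1410 CPM and was high in the replicate 2 library of each group. Besides these genes, the transcripts with the highest CPM included Tmsb4x, Malat1, Fth1, Actb, Srgn, S100a11, Cxcl2, Tyrobp, Lyz2 and S100a6. Cxcl2, a chemokine that attracts neutrophils through Cxcr2, was at 3696, 6058, 5353 and 6999 CPM.

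Monocytes and macrophages, of which the libraries held 91, are the nearest myeloid cells. In vehicle IgG 2 and mavrilimumab 2, the libraries with enough of both, the genes with the largest fold over monocytes and macrophages included granulocyte genes outside the rule, and were picked for that fold. Mmp9, gelatinase B, was at 656 and 1408 CPM in neutrophils and at 0 in both sets of monocytes and macrophages. Hdc, the histamine-forming enzyme, was at 613 and 979 CPM against 6.55 and 1.34 CPM, and C5ar1, the receptor for complement C5a, was at 588 and 733 CPM against 6.55 and 4.02 CPM. Asprv1, a protease, was at 313 and 702 CPM against 0 and 0. These contrasts carry no test, since marker genes of the same cells chose both classes, and they do not check the label.

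Genes of other cell types were low in most neutrophils, with exceptions that differed between libraries. The summed neural list was at 15.5, 4089, 0 and 43.1 CPM, and 10 of the 65 neutrophils of vehicle IgG 2 held 10 or more neural UMIs, against 0 in the other 3 libraries. The monocyte and macrophage list was at 326, 1313, 710 and 686 CPM, and 1, 3, 1 and 10 neutrophils held 10 or more of its UMIs. The 3 such cells of vehicle IgG 2 held 49, 65 and 50 of these UMIs and none of Il1b, Cxcr2, Retnlg, Camp, Ltf or Ngp. They had 12721, 7724 and 7359 UMIs in total, with 95, 67 and 99 of the cell cycle list. They met the rule, though these genes go against a maturing or mature neutrophil, and what cells they are was not tested. They count in the values of vehicle IgG 2, except without cells of 2 or more neural UMIs, and were not left out on their own. The microglia list was at 3090, 538, 591 and 780 CPM and so was highest in vehicle IgG 1, where 3 of its 10 genes were seen and near-empty droplets held 9299.6 CPM of it. Leaving out cells with neural UMIs was an alternative only for the comparisons across genes and the immature to mature balance below. The CPM values of vehicle IgG 2 include these cells and are not given without them.

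Secondary granule transcripts were abundant in some neutrophils and not read in others. Camp, which encodes the antimicrobial peptide cathelicidin, was at 0, 2988, 0 and 18325 CPM. Ngp, a granule protein of the same lineage, was at 0, 5045, 59.1 and 26214 CPM, and Ltf, which encodes iron-binding lactoferrin, at 0, 1513, 0 and 5874 CPM. All of these were high in the replicate 2 libraries of both groups and at or near 0 in the replicate 1 libraries, so the groups overlapped. The 10-gene secondary granule list as a whole stood at 1537, 15080, 1626 and 65615 CPM.

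By a limit chosen after the values were seen, a neutrophil was called granule-high where Camp, Ltf and Ngp made up 1% or more of its UMIs, granule-low where they were present under that, and granule-free where none was read. Vehicle IgG 1 held 0 granule-high, 0 granule-low and 8 granule-free cells. Vehicle IgG 2 held 6, 4 and 55, mavrilimumab 1 held 0, 1 and 14, and mavrilimumab 2 held 15, 12 and 41. Few cells lay close to the limit, with 3 in each of vehicle IgG 2 and mavrilimumab 2 between 0.5% and 2%. In granule-high cells these 3 genes took a median of 2.63% of UMIs in vehicle IgG 2 and 11% in mavrilimumab 2. Granule-high cells were also deeper, with medians of 2842 against 1313 UMIs in granule-free cells in vehicle IgG 2 and 15534 against 4399 in mavrilimumab 2.

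Il1b was read in few granule-high cells. An Il1b UMI was seen in 0 of 6 granule-high cells of vehicle IgG 2 and in 2 of 15 of mavrilimumab 2, against 44 of 55 and 39 of 41 granule-free cells. In granule-low cells it was seen in 1 of 4 in vehicle IgG 2, in the 1 cell of mavrilimumab 1 and in 5 of 12 in mavrilimumab 2. Over cells of 1 library, the level of the 3 granule genes and that of Il1b had a Spearman rho of -0.49 in vehicle IgG 2 (65 cells) and -0.72 in mavrilimumab 2 (68 cells). These cells share a library and differ in depth, which itself had a rho of 0.20 and 0.63 with the granule genes.

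**Figure D2:**
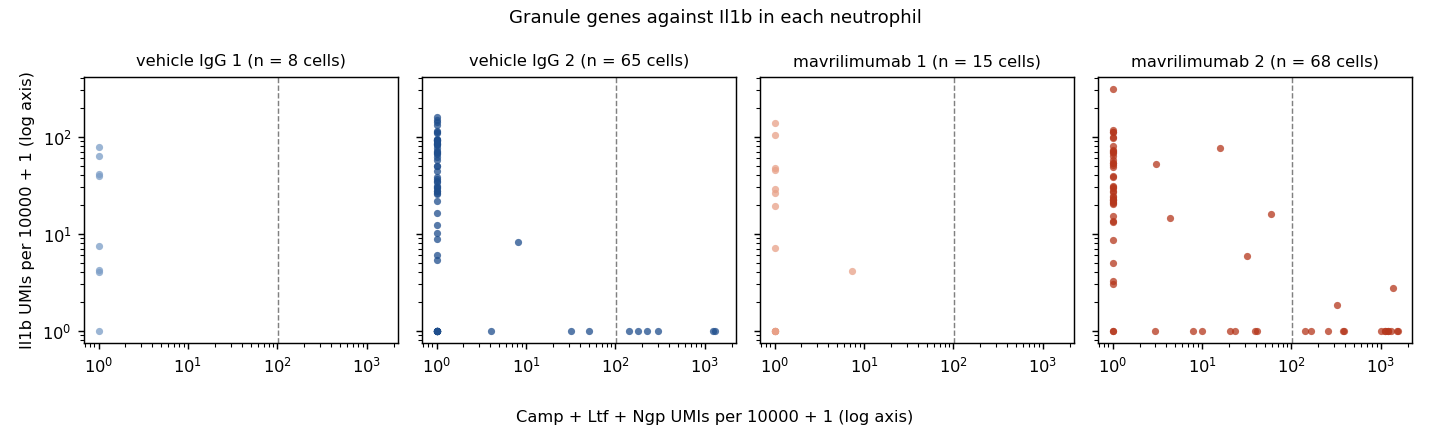
UMIs of Camp, Ltf and Ngp together (x axis) against UMIs of Il1b (y axis), both per 10000 UMIs of the cell plus 1 on log axes, with 1 point per neutrophil and 1 panel per library. The dashed line marks the 1% limit. Right of it lie 6 cells in vehicle IgG 2 and 15 in mavrilimumab 2, of which 2 have an Il1b UMI.

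Granule-high and granule-free cells were then compared across genes in vehicle IgG 2 and mavrilimumab 2, as mean UMIs per 10000 with a pseudocount of 0.5, over 807 genes with a mean of at least 2 in 1 of the kinds. The split used the same cells, so the comparison is a description with no test. At least 4-fold higher in granule-high cells in both libraries were 18 genes (2.23%), and at least 4-fold lower were 88 (10.9%). The median gene differed by -0.55 and -0.61 on the log2 scale. These levels are per total UMIs of a cell, to which S100a8, S100a9, Camp, Ltf and Ngp contribute. Scaled without these genes, 26 genes were called higher and 77 lower, over 965 past the level.

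Of the 7 listed secondary granule genes past the level, Camp, Ltf and Ngp set the split, and Cd177 and Lcn2 were called higher among the 4 others, beside 2.23% of all genes. Cd177, a surface glycoprotein of neutrophils, had 10.1 UMIs per 10000 in granule-high and 0.460 in granule-free cells of vehicle IgG 2, and 13 and 0.371 in mavrilimumab 2. Lcn2, which binds bacterial siderophores, had 92.8 and 13.4, and then 169 and 6.50. Chil3, a chitinase-like protein, had 20.4 and 14.1 in vehicle IgG 2 and 39.8 and 1.02 in mavrilimumab 2, and Hp, haptoglobin, had 8.17 and 12.3, and then 21.1 and 8.62, and neither was called.

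The other 13 genes called higher had varied roles, and 4 of them are given with their values. Ly6g, the surface antigen that defines mouse neutrophils in cytometry, had 6.30 and 0.506 UMIs per 10000 in vehicle IgG 2 and 9.33 and 0.562 in mavrilimumab 2. Cybb, the catalytic subunit of the phagocyte oxidase, had 5.25 and 0.431, and then 14.3 and 1.07, and was the 1 gene called of 7 NADPH oxidase genes, beside 2.23% of all genes. Lyz2, lysozyme, had 92.1 and 17.1, and then 158 and 7.52. Anxa1, a phospholipid-binding protein that limits inflammation, had 38.7 and 4.48, and then 42.6 and 4.98. The rule genes S100a8 and S100a9 were higher too, with S100a8 at 887 and 228 in vehicle IgG 2 and 1197 and 258 in mavrilimumab 2. Retnlg, another rule gene, had 112 and 68.6, and then 127 and 27.3.

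Several genes of mature, cytokine-producing neutrophils were lower in granule-high cells. Il1b had 0 against 49.3 UMIs per 10000 in vehicle IgG 2 and 0.171 against 47.8 in mavrilimumab 2. Csf3r, a rule gene through which granule-free cells could be chosen, had 0.136 against 19.7 and 2.44 against 26.2. Il1r2, the decoy receptor for interleukin 1, had 2.25 against 17.1 and 3.42 against 22, and Clec4d, a C-type lectin receptor, had 0 against 15.5 and 2.56 against 15.7. The mature neutrophil list had 7 of 15 genes called lower, beside 10.9% of all genes, and medians of -2.72 and -1.91. It holds the rule genes Csf3r, which was called, and Cxcr2, so this count is a description. Cxcr2, itself in the rule, had 2.06 against 12.4 and 4.67 against 11.1, with log2 differences of -2.33 and -1.16, and so was not called in both.

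The list of inflammatory cytokines and chemokines was lower as well, with 7 of 10 genes called, beside 10.9% of all genes (Ccl3, Ccl4, Ccl6, Csf1, Il1b, Il1rn and Ptgs2) and medians of -3.36 and -4.06. Cxcl2 had 30.4 against 114 UMIs per 10000 in vehicle IgG 2 and 8.57 against 162 in mavrilimumab 2, and was not called in the first. Of 9 genes of NF-kB feedback, which limit or mark signalling through that factor, Tnfaip2, Tnfaip3, Zfp36 and Ier3 were called lower. Against the same 10.9%, Junb and Cebpb were called lower among 7 granulocyte transcription factors, with Junb at 6.66 against 31.9 and 6.00 against 77.6 and Cebpb at 4.23 against 23.2 and 3.00 against 38.5. Of 23 receptor genes 6 were called lower, among them Cxcr4, a chemokine receptor that retains and recalls neutrophils to marrow, with 0.396 against 5.57 and 1.33 against 6.94. Of 13 interferon genes 7 were called lower, and of 10 stress and dissociation genes 4, beside the same 10.9% of all genes. The granule-free cells here include the interferon-high cells described below (6 of 55 and 9 of 41). Without them, Rsad2 had 0 in granule-high against 0.125 UMIs per 10000 in vehicle IgG 2, and 0.240 against 0.638 in mavrilimumab 2. Ifit3 had 0 against 0.716 and 0 against 0.252, and Isg15 had 1.87 against 3.03 and 0.342 against 2.21. The count of lower interferon genes without interferon-high cells was not tested. With a pseudocount of 2 in place of 0.5, 11 of all 807 genes were called higher and 22 lower.

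**Figure D3:**
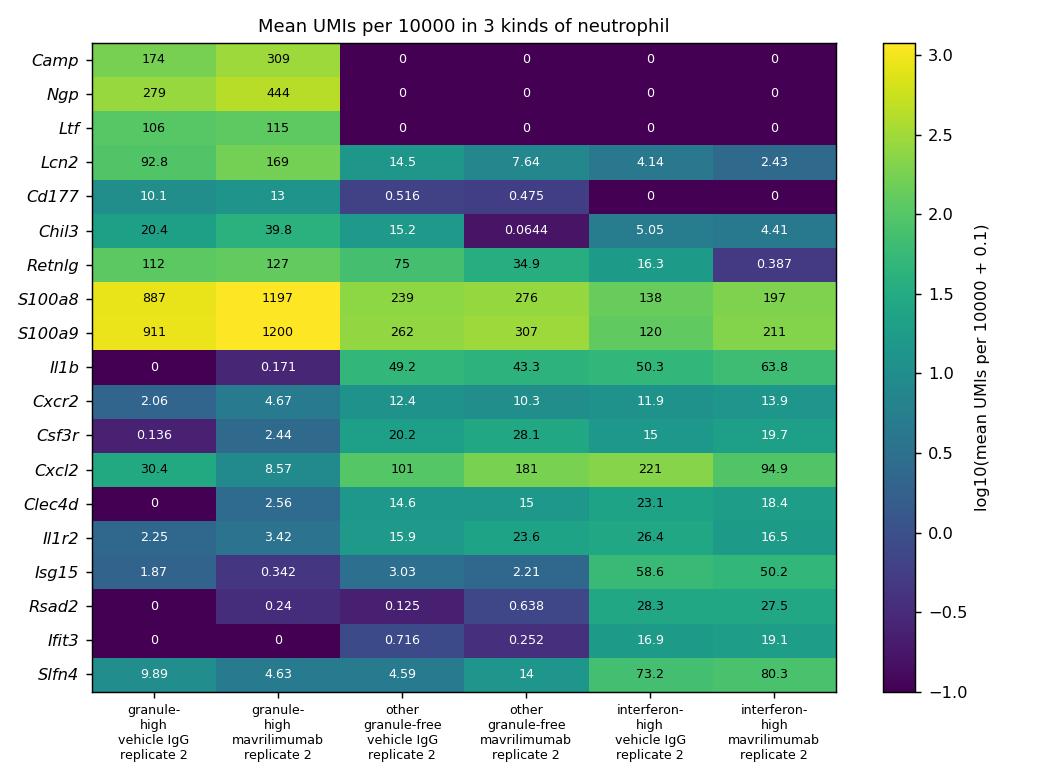
Mean UMIs per 10000 (printed in each cell, colour on a log10 scale) of genes in rows, for 3 kinds of neutrophil in vehicle IgG 2 and mavrilimumab 2 in columns. Camp, Ltf and Ngp are at 0 outside granule-high cells by construction, Il1b is at 0 and 0.171 in them, and Rsad2 is highest in interferon-high cells.

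To compare libraries of unequal depth, each neutrophil was thinned to 500 UMIs. A UMI of Camp, Ltf or Ngp was then seen in 0 of 8 neutrophils of vehicle IgG 1, which allows a share of up to 37.5%, and in 8 of 65 of vehicle IgG 2 (12.3%, exact binomial interval 5.47 to 22.8). It was seen in 0 of 15 of mavrilimumab 1, which allows up to 20%, and in 22 of 68 of mavrilimumab 2 (32.4%, 21.5 to 44.8). Without thinning the shares were 0%, 15.4%, 6.67% and 39.7%. T cells, which should lack these transcripts, gave thinned shares of 0 of 226, 1 of 4966, 0 of 5473 and 2 of 2803, at median depths of 12645, 2578.5, 3717 and 10892 UMIs.

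With at least 20 neutrophils required, each group kept 1 library, so the difference compares 2 libraries and not the treatments. Mavrilimumab 2 exceeded vehicle IgG 2 by 20.0 points (95% Newcombe interval 5.86 to 33.3, counting error only). Over all 4 libraries the group means differed by 10.0 points (exact permutation p = 1). The ratio of Camp, Ltf and Ngp UMIs to Cxcr2 and Il1b UMIs was 1527 to 506 in vehicle IgG 2 and 24556 to 1358 in mavrilimumab 2. On the log2 scale these are 1.59 and 4.18, a difference of 2.58 (2.42 to 2.75, counting error of UMIs only). The interval takes UMIs as independent, though 1 cell of vehicle IgG 2 held 347 of its 807 Ngp UMIs. As a mean over cells the difference was 2.28, outside this interval. In the replicate 1 libraries the ratio was 0 to 322 for vehicle IgG 1 and 2 to 136 for mavrilimumab 1. Cxcr2 was also used by the rule, and depth per cell differed between these libraries as given above. Free RNA of these genes was present too: the near-empty droplets of vehicle IgG 1 held 70.0 CPM of Camp, and 0 of its 8 neutrophils had a UMI of it. Camp, Ltf and Ngp together were at 193 CPM in these droplets. In those of vehicle IgG 2, mavrilimumab 1 and mavrilimumab 2 they were at 9.78, 0.220 and 40.8 CPM.

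Interferon-stimulated genes varied widely among neutrophils and between libraries. The interferon list, of which 47 genes were in the files, stood at 8029, 5027, 34955 and 7988 CPM in the summed neutrophils of vehicle IgG 1, vehicle IgG 2, mavrilimumab 1 and mavrilimumab 2, so mavrilimumab 1 was high and the others lay lower. Isg15, a ubiquitin-like protein that is attached to other proteins, was at 435, 475, 4495 and 593 CPM. Ifit3, a member of the IFIT family of antiviral proteins, was at 62.1, 125, 2602 and 269 CPM, and Rsad2, the antiviral enzyme viperin, was at 155, 156, 1065 and 357 CPM. For Isg15, Ifit3 and Rsad2 both mavrilimumab libraries lay above both vehicle IgG libraries, and mavrilimumab 2 was nearer to the latter than to mavrilimumab 1. This held for 10 of the 26 interferon genes tested, beside 9.43% of all genes. The summed list overlapped between groups, with vehicle IgG 1 at 8029 and mavrilimumab 2 at 7988 CPM.

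The same library was high in other cells and in free RNA. The list stood at 5165, 3185, 12536 and 6601 CPM in T cells, at 5628, 2497, 7439 and 5689 CPM in microglia, and at 3905, 1292, 11828 and 4773 CPM in near-empty droplets. Monocytes and macrophages had 3710, 15181 and 6354 CPM in vehicle IgG 2, mavrilimumab 1 and mavrilimumab 2. Free RNA estimated from neural genes was subtracted as an alternative. The log2 differences of mavrilimumab over vehicle IgG were then 3.48 for Ifit3, 1.71 for Rsad2 and 2.31 for Ifit3b, beside 3.56, 1.99 and 2.51 before. That estimate was 0 in mavrilimumab 1, so the part of free RNA in the interferon values of its neutrophils was not tested.

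By a second limit chosen after the values were seen, a neutrophil was called interferon-high at 200 or more UMIs of the list per 10000. There were 0 of 8 in vehicle IgG 1, 6 of 65 in vehicle IgG 2 (9.23%, exact binomial interval 3.46 to 19.0), 7 of 15 in mavrilimumab 1 (46.7%, 21.3 to 73.4) and 10 of 68 in mavrilimumab 2 (14.7%, 7.28 to 25.4). Of these, 9 of the 10 in mavrilimumab 2 and all in the other libraries were granule-free. The levels formed a range, since 2, 9, 4 and 10 neutrophils lay between 100 and 400 UMIs per 10000. At a limit of 100 the counts were 2, 12, 9 and 15, and at 400 they were 0, 3, 5 and 5.

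**Figure D4:**
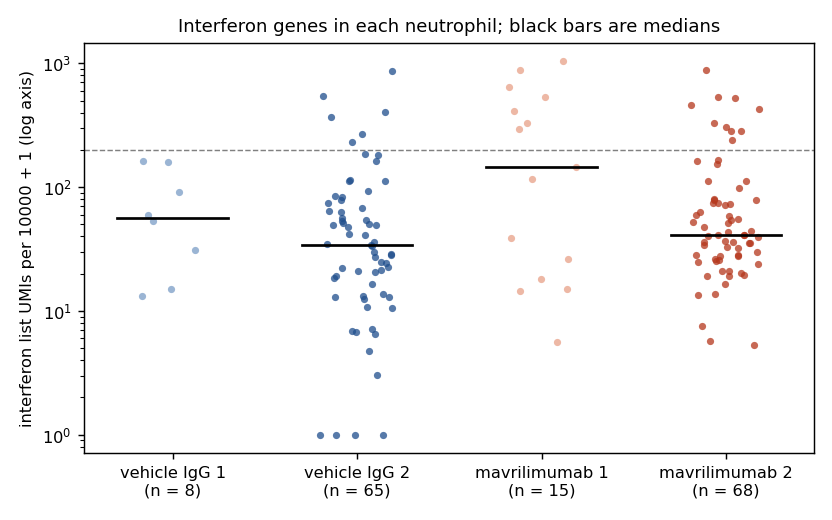
UMIs of the interferon list per 10000 UMIs of the cell plus 1 (y axis, log scale) in each neutrophil, by library (x axis), with the median as a bar and the limit of 200 as a dashed line. The medians are 55.5, 32.8, 145.5 and 40.0, and the highest cell of each library reaches 161, 862, 1036 and 874. That of vehicle IgG 2 held 10 neural UMIs, 6 of S100a8 and 4 of S100a9, and none of Retnlg, Il1b or Cxcr2.

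Interferon-high cells were compared with the other granule-free cells in the 3 libraries that held both (6 and 49 cells, 7 and 7 cells, 9 and 32 cells), again without a test. At least 4-fold higher in all 3 libraries were 15 of 759 genes (1.98%), of which 13 were on the list that set the limit. The remaining 2 were Gm13822 and Eif2ak2, the kinase that senses double-stranded RNA. Rsad2 had 28.3 against 0.125 UMIs per 10000 in vehicle IgG 2, 19.6 against 0 in mavrilimumab 1 and 27.5 against 0.638 in mavrilimumab 2. Slfn4, a schlafen gene of myeloid cells, had 73.2 against 4.59, 84.8 against 14.1 and 80.3 against 14. Of these genes, 12 had a promoter in the RefSeq table, and 7 of these held an ISRE match (Isg15, Ifit3, Rsad2, Ifit1, Ifit3b, Bst2 and Eif2ak2).

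In the other direction, 3 genes (0.395%) were at least 4-fold lower in all 3 libraries: Retnlg, Suco and Pip5k1b. Retnlg had 16.3 against 75 UMIs per 10000 in vehicle IgG 2, 0.828 against 101 in mavrilimumab 1 and 0.387 against 34.9 in mavrilimumab 2. It was seen in 2 of 6, 1 of 7 and 1 of 9 interferon-high cells, against 26 of 49, 6 of 7 and 24 of 32 others. Retnlg was part of the rule, which a cell could also meet through Csf3r, Cxcr2 or Mmp8. With a lower limit of the split, none of the 3 was called.

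Il1b and Cxcr2 differed by less than 4-fold between interferon-high and other granule-free cells. Il1b had 50.3 against 49.2 UMIs per 10000, 31.5 against 27.5 and 63.8 against 43.3 in vehicle IgG 2, mavrilimumab 1 and mavrilimumab 2. Cxcr2 had 11.9 against 12.4, 12.4 against 6.39 and 13.9 against 10.3. Lcn2 was lower, with 4.14 against 14.5, 1.82 against 9.28 and 2.43 against 7.64, and so was S100a9, with 120 against 262, 191 against 496 and 211 against 307, but neither was 4-fold lower in all 3. The 6 genes of MHC class I, which presents peptides to CD8 T cells, had medians of 1.31, 1.20 and 1.08 on the log2 scale, beside medians of 0.08, 0.11 and 0.16 over all genes, and 0 of them were called.

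Whether neutrophils differed between treatments was tested on counts summed per library. The rule set for this test, at least 20 neutrophils, left 1 library per group, so the test was run on all 4 libraries as well, each with at least 5 neutrophils. The quasi-likelihood test of edgeR called 0 of 1962 genes at an adjusted p under 0.05 (percent called 0), while 34 genes (1.73%) had an unadjusted p under 0.05, of which 12 (0.612%) were higher and 22 (1.12%) lower with mavrilimumab. DESeq2 called 0 genes, with 31 at an unadjusted p under 0.05, and limma-voom 0, with 47. With the replicate number as a block, edgeR called 18 genes (4 higher, 14 lower), although same-numbered libraries are not known to be pairs. Without overlap between groups, 185 genes (9.43%) were higher and 224 (11.4%) lower. The median log2 difference was -0.03. Without vehicle IgG 1 the test called 231 genes, 6 higher and 225 lower, and without mavrilimumab 1 it called 17. Each of these fits leaves 1 library in a group, vehicle IgG 2 with its neural UMIs in the first, and takes the spread from the 2 libraries of the other group alone, so the lone library is assumed to vary like them.

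Genes were named by p only among those without overlap between groups and above a minimum mean CPM. Among these, Ifit3 had the smallest unadjusted p of the higher genes. Rsad2 and Ifit3b, 2 further interferon genes, were among the 5 smallest. Ifit3 differed by 3.56 (SE 1.07, adjusted p = 0.997) on the log2 scale, and 1.72 (adjusted p = 0.9997) without mavrilimumab 1. Without vehicle IgG 1 it differed by 3.16 (adjusted p = 0.0204, against the single library vehicle IgG 2 and with the spread of the mavrilimumab pair alone). Rsad2 differed by 1.99 and Ifit3b by 2.51, with the latter at 62.1, 75, 887 and 129 CPM in the usual order of libraries. Without mavrilimumab 1 they differed by 1.50 and 1.17. Of the 26 interferon genes tested, 7 had an unadjusted p under 0.05 with higher values, beside 0.612% of all genes (Ifit3, Rsad2, Ifit3b, Cmpk2, Isg15, Oas3 and Ifih1), and 0 with lower, 0 passed the adjusted threshold, and the median was 1.50, beside -0.03 over all genes. In 10 of the 26, both mavrilimumab libraries lay above both vehicle IgG libraries, beside 9.43% of all genes. Other lists also exceeded that share, with counts given below.

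MHC class I genes had a median of 0.75 over 11 genes, beside -0.03 over all genes, and in 4 of them both mavrilimumab libraries were higher, beside 9.43% of all genes. H2-K1, a class I heavy chain, was at 745, 513, 2188 and 852 CPM, and Psmb9, a subunit of the immunoproteasome, at 77.6, 56.3, 414 and 121 CPM (log2 difference 1.73, SE 0.73, unadjusted p = 0.0425 and adjusted p = 0.997 by edgeR). The remaining higher genes named by p were Gadd45g and 1600014C10Rik. Gadd45g, a stress-response gene, was at 109, 87.5, 414 and 285 CPM (log2 difference 1.75). 1600014C10Rik was at 93.2, 50.0, 562 and 138 CPM (log2 difference 2.09, and 1.33 without mavrilimumab 1). Mavrilimumab 1 was the highest library in each of these genes. Near-empty droplets held 4090, 2685, 16073 and 8591 CPM of the MHC class I list against 6911, 3820, 14550 and 5835 CPM in neutrophils, so they were above the neutrophils in both mavrilimumab libraries.

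Of the 5 lower genes named by p, Nfia, mt-Nd1 and Hsp90ab1 were higher in free RNA than in neutrophils in every library. Nfia, a transcription factor of glia, was at 124, 325, 0 and 32.8 CPM in neutrophils and at 374, 594, 84.8 and 260 CPM in near-empty droplets. The mitochondrial gene mt-Nd1 was at 450, 1475, 148 and 166 CPM in neutrophils and 1021, 2509, 843 and 1335 CPM in droplets, and Hsp90ab1, a chaperone, at 559, 1107, 59.1 and 185 CPM and 582, 1961, 1555 and 1592 CPM. Acadl, an enzyme of fatty acid oxidation, was at 233, 119, 29.6 and 22.6 CPM, and Fabp5, a fatty acid binding protein, at 202, 113, 0 and 16.4 CPM, with log2 differences of -2.70 and -3.25. Near-empty droplets held 36.4, 106, 106 and 97.9 CPM of Acadl and 12.9, 152, 24.8 and 53.7 CPM of Fabp5, so vehicle IgG 1 was above its droplets in both genes, from 2 of its 8 neutrophils in each. The adjusted p was 0.997 for each of these 5 genes over all 4 libraries. Without vehicle IgG 1, against the single library vehicle IgG 2 and with the spread of the mavrilimumab pair alone, it was 0.00102 for Nfia, 0.00114 for mt-Nd1 and 0.00329 for Hsp90ab1. Without vehicle IgG 2 the log2 difference moved from -2.76 to -1.08 for mt-Nd1 and from -2.66 to -1.51 for Hsp90ab1 (adjusted p = 0.978 for both). Without neutrophils of 2 or more neural UMIs that of Hsp90ab1 was -1.47. Without mavrilimumab 2 it was -7.42 for Nfia, -6.65 for Fabp5 and -4.15 for Hsp90ab1, where Nfia and Fabp5 have no UMI in the remaining mavrilimumab library, so that these sizes depend on the prior count.

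The receptor chain that mavrilimumab binds was read in neutrophils of every library. Csf2ra was at 854, 194, 532 and 454 CPM, with a log2 difference of 0.06 (SE 0.71, adjusted p = 0.997), and the mavrilimumab libraries lay between the vehicle IgG libraries. Csf2rb, the chain it pairs with, was at 450, 75, 325 and 162 CPM, with a log2 difference of -0.02 (SE 0.76, adjusted p = 0.997). Csf3r, the remaining tested gene of this list, was used by the rule and is described above. The list of GM-CSF and G-CSF receptors, which also holds Csf1r, Il3ra and Il5ra, stood at 4146, 1282, 2750 and 1850 CPM in neutrophils. Most of this sum was the rule gene Csf3r. In near-empty droplets the list stood at 1734, 32.9, 276 and 415 CPM, highest in vehicle IgG 1. Microglia held 3573, 1403, 3382 and 3214 CPM of it. The droplet sums thus do not measure free RNA of the GM-CSF receptor alone. All these values measure transcripts and not receptor on the surface or its occupancy.

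No secondary granule, maturity or cytokine gene tested had an unadjusted p under 0.05, beside 1.73% of all genes, a share at which lists of this size hold few or no such genes. Elane, the 1 tested primary granule gene, was at 0, 2845, 0 and 107 CPM, with a log2 difference of -4.50 (unadjusted p = 0.0481 and adjusted p = 0.997 by edgeR). It rests on 1 cell per library, which held 452 of 455 Elane UMIs in vehicle IgG 2 and all 52 in mavrilimumab 2. Camp had a log2 difference of 2.47 with an SE of 2.38, and the 7 tested secondary granule genes had a median of 1.62, with 0 at an unadjusted p under 0.05. Il1b, at 3230, 2488, 3076 and 2030 CPM, had a log2 difference of -0.22 (SE 0.59). The 17 mature neutrophil genes had a median of 0.22, the 10 cytokine and chemokine genes 0.28 and the 12 NF-kB feedback genes 0.38, each with 0 genes at an unadjusted p under 0.05. The same held for 7 NADPH oxidase genes (median 0.47), 10 stress and dissociation genes (-0.49), 31 receptor genes (0.12) and 15 myeloid suppressor genes (0.36). Both mavrilimumab libraries lay above both vehicle IgG libraries in 4 of 12 NF-kB feedback and 3 of 7 NADPH oxidase genes. They also did in 5 of 15 myeloid suppressor, 4 of 31 receptor and 1 of 10 stress and dissociation genes, beside 9.43% of all genes. Both lay below in 4 of 10 stress and dissociation genes and 1 of 31 receptor genes, beside 11.4% of all genes. The lists of mature neutrophil, receptor and myeloid suppressor genes hold genes of the rule (Cxcr2, Csf3r, S100a8 or S100a9), so their counts and medians are descriptions.

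**Figure D5:**
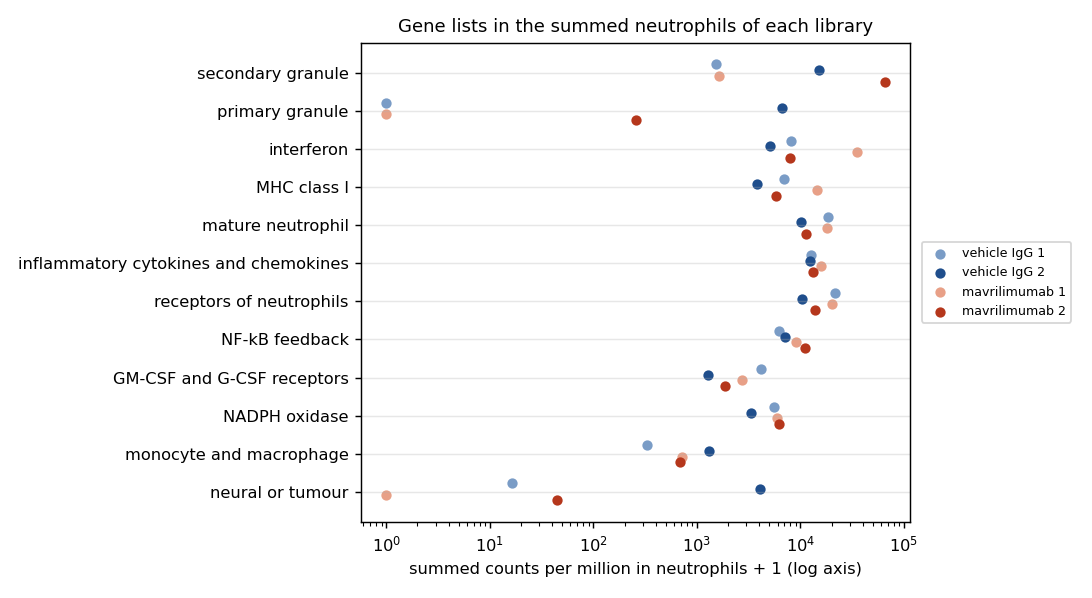
Summed CPM plus 1 of gene lists (rows) in the summed neutrophils of each library, on a log x axis, with 1 point per library. Secondary granule genes are highest in mavrilimumab 2 (65615 CPM) and interferon genes in mavrilimumab 1 (34955 CPM), while the neural list is highest in vehicle IgG 2 (4089 CPM).

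The 2 libraries with at least 20 neutrophils, mavrilimumab 2 and vehicle IgG 2, were set side by side without a test. Of 5046 genes 480 (9.51%) differed at least 4-fold, 81 (1.61%) higher and 399 (7.91%) lower in mavrilimumab 2. This split moved with the cells and free RNA that were kept. It was 91 higher and 132 lower without the 10 neutrophils of vehicle IgG 2 that held 10 or more neural UMIs, and 357 and 17 without all that held 2 or more, which left 28 of 65 in vehicle IgG 2 and 65 of 68 in mavrilimumab 2. With the free RNA estimated from neural genes subtracted it was 248 and 125. Over the 1817 genes whose neutrophil level was at or above that of near-empty droplets, 20 (1.1%) differed at least 4-fold, with 12 higher and 8 lower.

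The 12 higher genes were Cstdc5, Orm1, Fcnb, H2-K2, Agpat2, Gm56849, Oas3, Armc7, 4930438A08Rik, Itgb2l, Gca and Camp. Fcnb, a secreted ficolin, was at 18.8 CPM in vehicle IgG 2 and 312 CPM in mavrilimumab 2, where 1 cell held 105 of its 152 UMIs, Itgb2l, an integrin beta chain of granulocytes, at 31.3 and 238 CPM, and Orm1, an acute-phase protein, at 0 and 115 CPM. Cstdc5, of the cystatin family, was at 0 and 292 CPM. The 8 lower genes included the primary granule genes Mpo (1475 and 6.16 CPM), Elane (2845 and 107 CPM) and Prtn3 (1282 and 55.4 CPM). The UMIs of these 3 genes came almost wholly from single cells, which are described with the other observations.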

How the data were processed

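Single-cell gene expression libraries and T cell receptor libraries were deposited for brain tissue, and 4 expression and 3 receptor libraries were analysed here. The deposited values were raw UMI counts per gene and droplet, made by the authors with Cell Ranger. The submitters' processing notes name Cell Ranger versions 7 and 7.1.0, Scanpy 1.8.2 and the build mm10, while the matrix headers name Cell Ranger 9.0.1. No cell annotation of the authors was used, and neutrophils were rebuilt from marker genes. No doublet caller was run on these few cells, and the genes required to be absent remove only pairs with T cells, B cells or microglia.

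Counts were scaled to a total of 1000000 (CPM) or of 10000 UMIs. Near-empty droplets were barcodes under 100 UMIs. Counts were summed per library and tested with edgeR 4.0.16 in R 4.3.3 (TMM, filterByExpr, quasi-likelihood test, Benjamini-Hochberg adjustment, design without a replicate term), with DESeq2 1.42.0 and limma 3.58.1 (voom) as alternatives. The SE given with a log2 difference is its absolute size over the square root of the quasi-likelihood F statistic, not a standard error of the fitted coefficient. Every script with a test across genes was tested on simulated data. Shares were compared with 2-sided exact permutation tests over libraries, computed with scipy 1.17.1. Where a count was 0, 3 counts of the total gave the upper limit. The study used limma and edgeR on subsets of cells, and sums per library were used here. Named genes were those of the selection rule, the most abundant genes of each list, those with the highest CPM and those with the largest fold over monocytes and macrophages. As no gene passed the threshold, the 5 each way with the smallest unadjusted p were also named. These 5 were taken among genes without overlap between groups and above a minimum mean CPM. Genes named for the kinds of neutrophil and for the 2-library comparison were chosen after their values were seen.

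The neutrophil rule, lists and limits were chosen with earlier results of these data known. The same replicate numbers do not show a shared animal or batch, so they were not taken as pairs.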

Additional observations from a re-analysis of the deposited data

Results flagged for a closer look

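T cell receptor contig barcodes, which no comparison above uses, were found among neutrophils. Of the 156 neutrophils, 6 had a barcode that is also in one of the 3 receptor contig files, and 1 of these cells had a productive contig. In the receptor and expression libraries that shared most barcodes, 2 of 8 neutrophils of vehicle IgG 1, 1 of 15 of mavrilimumab 1 and 1 of 68 of mavrilimumab 2 had a contig. Microglia of the same libraries, which should carry no receptor, had one in 130 of 611 (21.3%), 29 of 208 (13.9%) and 47 of 733 (6.41%) cells. The difference between neutrophils and microglia was not tested.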

How the results depend on the processing

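The difference in neutrophil share lay between -0.247 and 0.660 points when 1 library was left out and turned negative without vehicle IgG 2 (-0.0490) or mavrilimumab 2 (-0.247). With the replicate block it was 0.206 points (exact permutation p = 1), and deviations of same-numbered libraries correlated at 0.437 over 1962 genes, which with 1 such value cannot show pairing. The 4-library test, at 0 genes, called 36 without a filter on low counts (3 higher, 33 lower), 18 with the replicate block (4 higher, 14 lower) and 0 to 231 with 1 library left out. The 2-library comparison, at 480 genes, gave 1344 without that filter, 70 with at least 10 UMIs in every library, 223 without neutrophils of 10 or more neural UMIs, 20 over genes at or above near-empty droplets and 33 with all 4 libraries. The balance, at 2.58, was 2.23 over Cxcr2 alone, 1.94 over the lists and 2.28 as a mean over cells. Without neutrophils of 10 or more neural UMIs it was 2.67, and the granule comparison gave 17 higher and 94 lower genes. With a pseudocount of 2, the granule comparison gave 11 higher and 22 lower genes and the interferon comparison 7 and 1, and with a lower limit the latter gave 0 lower. The cause of these changes was not tested. Of 154 refits of the 10 genes named by p, 10 passed the adjusted threshold and 0 changed sign. These genes were chosen for no overlap between groups, so their sign could hardly change on refitting. With the replicate block the adjusted p by edgeR was 0.0119 for Ifit3, 0.0293 for Fabp5, 0.00273 for Nfia, 0.0152 for mt-Nd1 and 0.0111 for Hsp90ab1. Without the filter on low counts it was 0.0275 for Ifit3. Leaving out a library, DESeq2, voom and the replicate block could not be run on the 2-library results, with 1 library per group. Leaving out neutrophils of 10 or more neural UMIs, taking granule-free cells alone, all 4 libraries for the thinned share, every setting of the granule and interferon comparisons, and every setting of the 4-library test beyond its minimum of 5 neutrophils were chosen after seeing the data. Precision in vehicle IgG 1 and mavrilimumab 1 is limited by 8 and 15 neutrophils, and in vehicle IgG 2 by a median of 1388 UMIs per neutrophil. The share of free RNA in neutrophil UMIs was estimated from the neural list alone, as its level in neutrophils over that in near-empty droplets. This estimate was 0.136 in vehicle IgG 1, 0.368 in vehicle IgG 2, 0.0137 in mavrilimumab 2 and 0 in mavrilimumab 1. In mavrilimumab 1 its subtraction thus changed no value. Neutrophils with many neural UMIs raise the estimate, and 10 of vehicle IgG 2 held 10 or more. In vehicle IgG 1 it rests on 1 neural UMI.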

Other observations

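Primary granule genes, which mark precursors before the secondary granule stage, were held by very few cells. In vehicle IgG 2 a single neutrophil by the rule, of 12721 UMIs, carried 969 UMIs of Mpo, Elane, Prtn3 and Ctsg, including all 236 of the library's neutrophil UMIs of Mpo (myeloperoxidase), 452 of 455 of Elane (neutrophil elastase) and 198 of 205 of Prtn3 (proteinase 3). It had no UMI of Camp, Ltf, Ngp, Il1b or Cxcr2, 89 UMIs of S100a8 and S100a9, 95 of the cell cycle list and 49 of the monocyte and macrophage list. In mavrilimumab 2 a single cell of 39886 UMIs carried 80 UMIs of those protease genes together with 4394 of Camp, Ltf and Ngp, 8869 of S100a8 and S100a9, 217 of the cell cycle list and 16 of Mki67, the proliferation marker. It also held 105 of the library's 152 neutrophil UMIs of Fcnb. Further holders of protease UMIs had 8 and 2 in vehicle IgG 2 and 2 in mavrilimumab 2, and the former 2 cells also had 67 and 99 cell cycle UMIs and 65 and 50 of the monocyte and macrophage list. With so few cells, no comparison between treatments can be made.

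A UMI of Mki67 or Top2a was seen in 2 of 6 granule-high and 12 of 55 granule-free neutrophils of vehicle IgG 2, and in 3 of 15 and 2 of 41 of mavrilimumab 2. The holders of protease UMIs in vehicle IgG 2 had 3, 4 and 12 UMIs of Mki67 and none of Camp, Ltf or Ngp, so they are among the 12 of 55. Granule-free neutrophils of vehicle IgG 2 also include cells with neural UMIs, and the part of those cells in the 12 of 55 was not tested.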
